A study of Homo sapiens with 2 samples.

Results

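The mRNAs of 34 splicing regulators, 22 heterogeneous nuclear ribonucleoproteins (hnRNPs) and 12 serine/arginine-rich (SR) proteins, were examined in RNA co-precipitated with LRPPRC, out of 21262 rows of the deposited table. They were chosen by gene name, and all 34 names were found, each in 1 row. The RNA was captured with an antibody against LRPPRC, a leucine-rich pentatricopeptide repeat RNA-binding protein, from lysates of A549 cells with the WT genotype, an established human lung adenocarcinoma line of epithelial type. RNA immunoprecipitation sequencing (RIP-seq) gave 2 libraries of this 1 condition, replicate 1 and replicate 2. The series description calls the replicates technical and the paper calls them biological, so their spread may be technical only. Values are FPKM, fragment counts normalised for transcript length and for library size, and they give the level of an mRNA in the precipitate. No input or IgG library was used here to set that level against the cell, so an abundant mRNA and a strongly bound mRNA cannot be told apart. With 1 condition and 2 libraries no test was made between genes or families, and what follows describes these libraries.

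The epithelial keratins KRT8 and KRT18 had means of 337 and 51.1 FPKM, whereas the epithelial adhesion genes EPCAM and CDH1 had only 0.43 and 1.33. The other listed markers of A549 cells, KRT19, AKR1C1 and AKR1B10, lay between, at means of 12.1, 7.66 and 32.2 FPKM. The listed markers of leukocytes summed to 0.0827 FPKM in replicate 1 and 0.115 in replicate 2, with PTPRC and CD3E not among the rows used here. Endothelial markers summed to 0.536 and 0.902 FPKM in replicates 1 and 2, and fibroblast markers to 0.730 and 0.692. FPKM over all rows summed to 196627 in replicate 1 and 194839 in replicate 2, and the sequencing depth is unknown.

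Both families bind pre-mRNA and act on the choice of splice sites. SR proteins carry RNA recognition motifs and a domain rich in arginine and serine, and they mostly bind exonic enhancers and help recruit the spliceosome. The hnRNPs are a more mixed group, bound to pre-mRNA through RNA recognition, KH or related domains. Several of them silence exons, and many also act in mRNA export, stability and translation. Many genes of both families control their own level by splicing in exons that send the transcript to nonsense-mediated decay, the pathway that removes mRNAs with early stop codons.

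The 22 listed hnRNP mRNAs stood higher in LRPPRC RIP than the 12 listed SR mRNAs. Their median was 45.9 FPKM, against 13.4 FPKM for the SR mRNAs, a ratio of 3.42 (log2 ratio 1.77). The ratio of the medians was 3.48 in each library, with 45.1 against 12.96 FPKM in replicate 1 and 46.7 against 13.4 FPKM in replicate 2. A mean above FPKM 30, the threshold the study uses for LRPPRC-binding RNAs, was reached by 15 of 22 hnRNP mRNAs (68.2%) and by 2 of 12 SR mRNAs (16.7%). The background was taken as 10441 named genes detected at FPKM 1 or more in each library, of which 13.6% were above FPKM 30 and the median of which was 6.81 FPKM. The hnRNP share was thus far above the background share, and the SR share was near it. By level, however, the SR median was above the background median, and 2 of 12 SR means lay below that median. Above FPKM 20 were 18 hnRNP and 3 SR mRNAs and 21.1% of the background, and above FPKM 50 were 10 hnRNP mRNAs, 1 SR mRNA and 6.89% of the background. Over all 34 members, 17 (50%) were above FPKM 30 with a median of 29.3 FPKM, and each member lay on the same side of the threshold in both libraries.

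The families did overlap in level. Of the hnRNP mRNAs, 19 of 22 were above the SR median and 5 were above the highest SR mRNA, SRSF2. In turn, 1 SR mRNA was above the hnRNP median. The 22 hnRNP mRNAs took 0.756% and 0.747% of all FPKM in replicates 1 and 2. The 12 SR mRNAs took 0.126% in each library. Among the hnRNPs, the 5 highest held 56.3% of the family's sum in replicate 1 and 56.4% in replicate 2, and SRSF2 and SRSF11 held 51.7% and 50.7% of the SR sum.

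**Figure D1:**
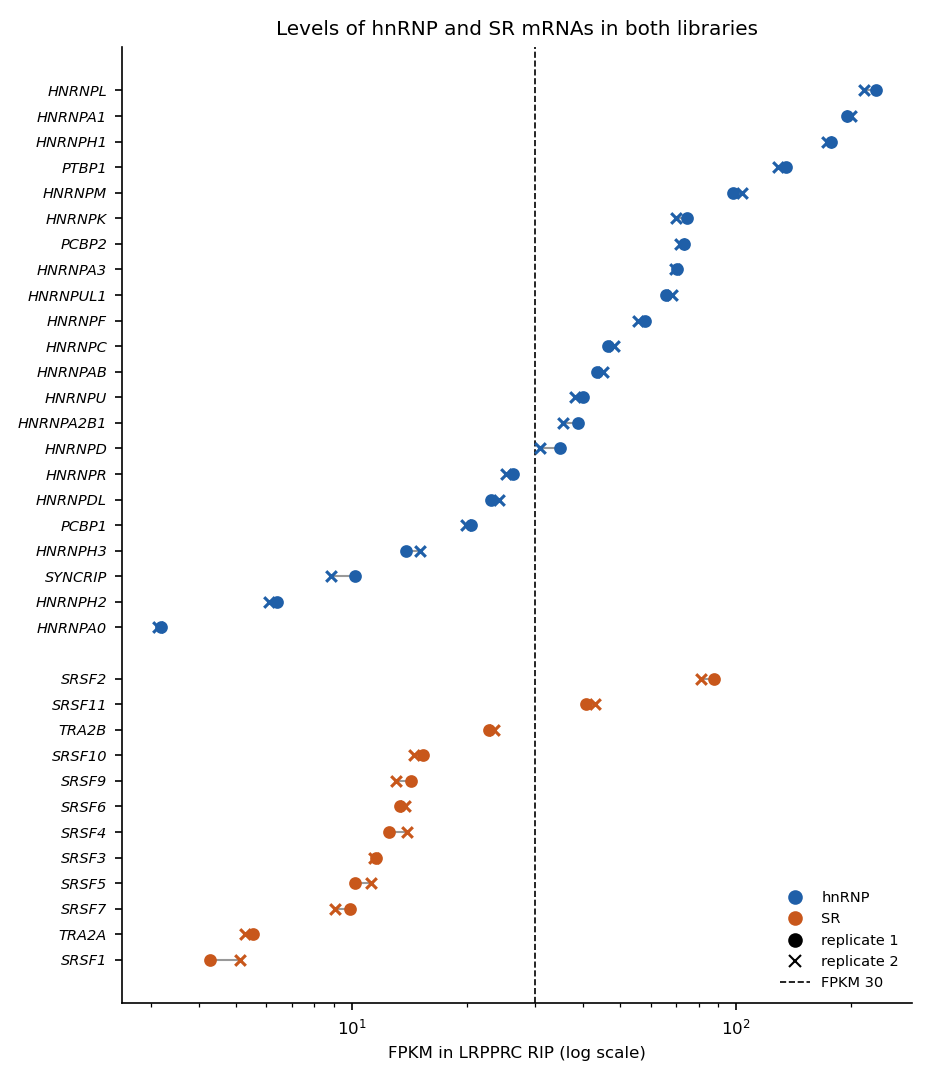
FPKM of each member in LRPPRC RIP (x axis, log scale), with hnRNP mRNAs in blue above and SR mRNAs in orange below, each ordered by mean. Circles are replicate 1, crosses are replicate 2 and the dashed line is FPKM 30, which 15 hnRNP and 2 SR mRNAs exceeded in both libraries.

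HNRNPL, which binds CA-rich elements, was the highest of all members, with 232 FPKM in replicate 1 and 215 in replicate 2 (mean 224 ± 11.5, SD, n = 2). PTBP1, also called hnRNP I, a repressor of exons at pyrimidine-rich tracts, had 135 and 129 FPKM in replicates 1 and 2 (mean 132 ± 4.14, SD, n = 2). Both lie on chromosome 19 of GRCh38, HNRNPL from 38836370 to 38852347 and PTBP1 from 797075 to 812327. HNRNPL was at the 99.2 percentile of the background and PTBP1 at the 98.5 percentile.

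The A subfamily spanned most of the range of the whole set. HNRNPA1, a shuttling splicing repressor and the second of all members in both libraries, had 195 FPKM in replicate 1 and 199 in replicate 2 (mean 197 ± 3.10, SD, n = 2). HNRNPA3 had 70.1 and 69.6 FPKM, and HNRNPA2B1, which also acts in RNA trafficking, had 38.8 and 35.5. The intronless HNRNPA0 had 3.19 and 3.13 FPKM, the lowest of the 34. HNRNPA1 thus stood 62.5 times above HNRNPA0 in FPKM within the same subfamily, and 26.8 times above it in FPKM multiplied by transcript length, since the HNRNPA0 transcript is longer.

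The H and F subfamily binds G-rich tracts and also showed a wide range. HNRNPH1 had 177 FPKM in replicate 1 and 173 in replicate 2 (mean 175 ± 2.94, SD, n = 2), and HNRNPF had 58.0 and 55.6. HNRNPH3 had 13.9 and 15.1 FPKM, and HNRNPH2 had 6.398 and 6.11, below the background median. HNRNPH1 and HNRNPF were therefore above FPKM 30, and HNRNPH2 and HNRNPH3 below it, in both libraries.

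Among the KH-domain proteins of poly(C), HNRNPK had 74.7 and 70.0 FPKM in replicates 1 and 2, and PCBP2 (hnRNP E2) had 73.2 and 71.5. These neighbours did not differ beyond the spread of the libraries, and their order changed between replicates. PCBP1 (hnRNP E1), an intronless gene, was lower, with 20.5 and 19.8 FPKM.

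The D subfamily, which binds AU-rich elements and acts in mRNA decay as well as splicing, lay in a narrow band. HNRNPAB had 43.6 FPKM in replicate 1 and 45.2 in replicate 2, HNRNPD (AUF1) had 34.8 and 31.0, and HNRNPDL had 23.1 and 24.2. HNRNPD was the member just above the threshold and HNRNPR, with 26.3 and 25.3 FPKM, the one just below it.

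The other hnRNPs ranged from HNRNPM to SYNCRIP. HNRNPM had 98.2 FPKM in replicate 1 and 104 in replicate 2. HNRNPC, which binds uridine tracts in introns, had 46.5 and 48.2 FPKM. The nuclear scaffold protein HNRNPU had 39.9 and 38.05 FPKM and its relative HNRNPUL1 had 65.8 and 68.3. SYNCRIP (hnRNP Q), a relative of HNRNPR that acts in mRNA translation and transport, had 10.2 and 8.87 FPKM. HNRNPR and SYNCRIP form the hnRNP subfamily here with both members below FPKM 30.

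Most SR mRNAs lay within a narrow range, from which SRSF2 stood out. SRSF2 (SC35), an exon enhancer-binding protein encoded on chromosome 17 of GRCh38 from 76734115 to 76737333, had 87.5 FPKM in replicate 1 and 81.3 in replicate 2 (mean 84.4 ± 4.41, SD, n = 2). SRSF11, an SR-like protein, had 40.8 and 43.0 FPKM, and TRA2B, a binder of GA-rich exonic enhancers, had 22.8 and 23.5. All other 9 SR mRNAs had means between those of SRSF1 and SRSF10, from 4.70 to 15.0 FPKM.

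SRSF1 (ASF/SF2), the founding SR protein and a known oncoprotein, had the lowest SR level, with 4.28 FPKM in replicate 1 and 5.12 in replicate 2. It was at the 38.7 percentile of the background. SRSF10 had 15.4 and 14.6 FPKM and SRSF9 had 14.3 and 13.1. The shuttling proteins SRSF3 and SRSF7, which link splicing to mRNA export, had 11.6 and 11.4 FPKM and 9.92 and 9.04 FPKM, each given as replicate 1 and replicate 2. SRSF4, SRSF5 and SRSF6, close relatives with a long arginine and serine-rich domain in SRSF4, had 12.5 and 14.0, 10.2 and 11.2, and 13.4 and 13.8 FPKM. TRA2A had 5.56 and 5.27 FPKM. Of the 8 classical SR proteins, SRSF1 to SRSF7 and SRSF9, SRSF2 was above FPKM 30, a share of 12.5% beside 13.6% of the background, and their median was 12.4 FPKM.

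Of 33 neighbouring pairs in the order of the means, 8 had library values that overlapped. These were HNRNPK and PCBP2, HNRNPU and HNRNPA2B1, HNRNPDL and TRA2B, the run from SRSF10 through HNRNPH3, SRSF9 and SRSF6 to SRSF4, and SYNCRIP and SRSF7. HNRNPU stood above HNRNPA2B1, and HNRNPDL above TRA2B, within each library, by small margins. The order within the other overlapping pairs changed between the libraries and is not resolved. The first 6 places, from HNRNPL to SRSF2, were the same in both libraries. No member differed by more than 1.5 times between the libraries, against 1.52% of background genes, and 4 of 34 differed by more than 1.1 times, against 23.8%. The largest ratio was that of SRSF1, 1.20 times higher in replicate 2, followed by SYNCRIP and HNRNPD, 1.15 and 1.12 times higher in replicate 1. On log2(FPKM + 1), the median absolute difference between the libraries was 0.064 over the members and 0.054 over the background. These comparisons were not matched for level, with medians of 29.3 FPKM for the members and 6.81 FPKM for the background.

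**Figure D2:**
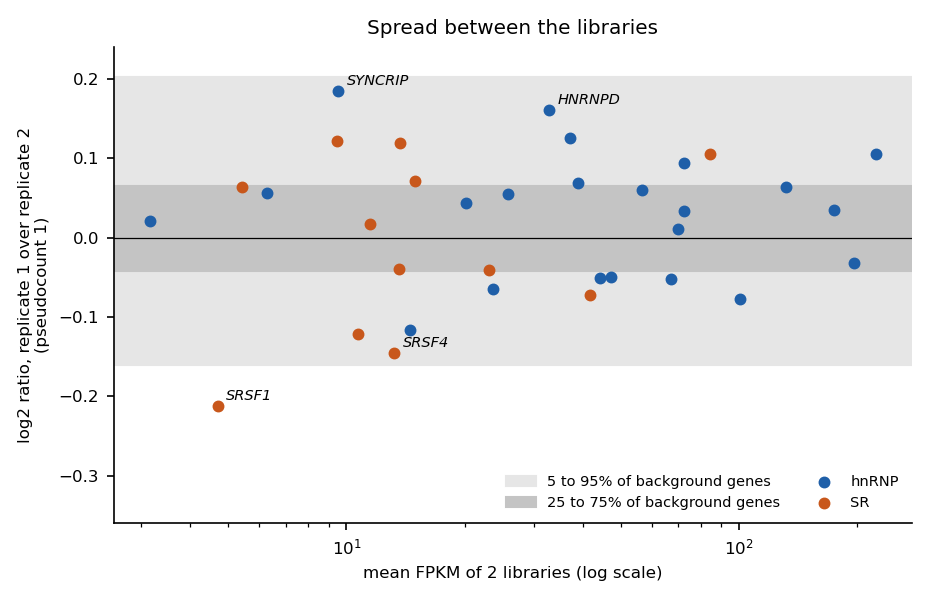
Log2 ratio of replicate 1 to replicate 2 with a pseudocount of 1 (y axis) against the mean FPKM on a log scale (x axis), hnRNP mRNAs in blue and SR mRNAs in orange. The dark and pale bands hold the middle 25 to 75% and 5 to 95% of background genes, and SRSF1, at -0.21, is the member outside the pale band.

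Pairs of related members were compared for their coding sequences and levels. In 8 of 16 pairs the mean FPKM differed by more than 2 times, and in the other 8 by less. The widest was HNRNPH1 over HNRNPH2, by 27.7 times in replicate 1 and 28.3 in replicate 2, and these are also the most similar of the 16 pairs, with 87.6% identity over 1350 coding bases. PCBP2 was 3.59 times above PCBP1 (83.9% identity), HNRNPA1 5.31 times above HNRNPA2B1 (72.3%), TRA2B 4.27 times above TRA2A (68.6%) and HNRNPH1 3.08 times above HNRNPF (77.8%). SRSF4 and SRSF6 differed by 1.03 times in FPKM, within the spread of the libraries. With FPKM multiplied by transcript length, 9 of 16 pairs differed by more than 2 times, and the size of several differences changed. PCBP2 then stood 6.57 times above PCBP1, TRA2B 9.99 times above TRA2A, and SRSF6 1.94 times above SRSF4, while HNRNPH1 stood 27.3 times above HNRNPH2.

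The longest identical coding stretches of the closest pairs are shown because a read lying wholly inside one matches both genes. A read longer than the stretch cannot lie wholly inside it. No read length was used here, so whether any read did so was not tested. Capitals mark the bases that are identical in both genes without a break and lower case the adjoining coding bases, taken 5′ to 3′ from GENCODE 44 transcripts on GRCh38. The HNRNPH1 and HNRNPH2 stretch has 50 identical bases. It lies at chr5:179617889-179618014 on the minus strand in HNRNPH1, across an intron that is spliced out, and at chrX:101412750-101412819 on the plus strand in HNRNPH2.
HNRNPH1: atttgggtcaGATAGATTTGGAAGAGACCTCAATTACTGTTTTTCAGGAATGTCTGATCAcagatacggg
HNRNPH2: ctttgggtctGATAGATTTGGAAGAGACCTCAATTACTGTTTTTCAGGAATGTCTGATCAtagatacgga

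The HNRNPH1 and HNRNPF stretch has 38 identical bases, at chr5:179619388-179620929 on the minus strand across an intron in HNRNPH1 and at chr10:43387468-43387525 on the minus strand in HNRNPF.
HNRNPH1: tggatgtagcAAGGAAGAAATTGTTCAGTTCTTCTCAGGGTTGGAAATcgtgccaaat
HNRNPF: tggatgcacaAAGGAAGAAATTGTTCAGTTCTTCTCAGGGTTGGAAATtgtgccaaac

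The PCBP1 and PCBP2 stretch has 33 identical bases, at chr2:70088517-70088569 on the plus strand in the sole exon of PCBP1 and at chr12:53467292-53468788 on the plus strand across an intron in PCBP2.
PCBP1: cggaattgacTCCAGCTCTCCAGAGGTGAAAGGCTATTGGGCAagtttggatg
PCBP2: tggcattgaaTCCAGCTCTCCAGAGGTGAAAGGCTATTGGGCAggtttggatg

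Across the 16 pairs the longest identical stretch ranged from 10 to 50 bases. The SR pairs shared at most 17, in SRSF4 and SRSF5, and 14 in TRA2A and TRA2B. TRA2A at chr7:23507497-23507530 and TRA2B at chr3:185922088-185922121, both on the minus strand, are printed to show how short a shared stretch is in a pair whose levels also differ.
TRA2A: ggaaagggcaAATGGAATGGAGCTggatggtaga
TRA2B: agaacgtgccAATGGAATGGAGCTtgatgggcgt

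**Figure D3:**
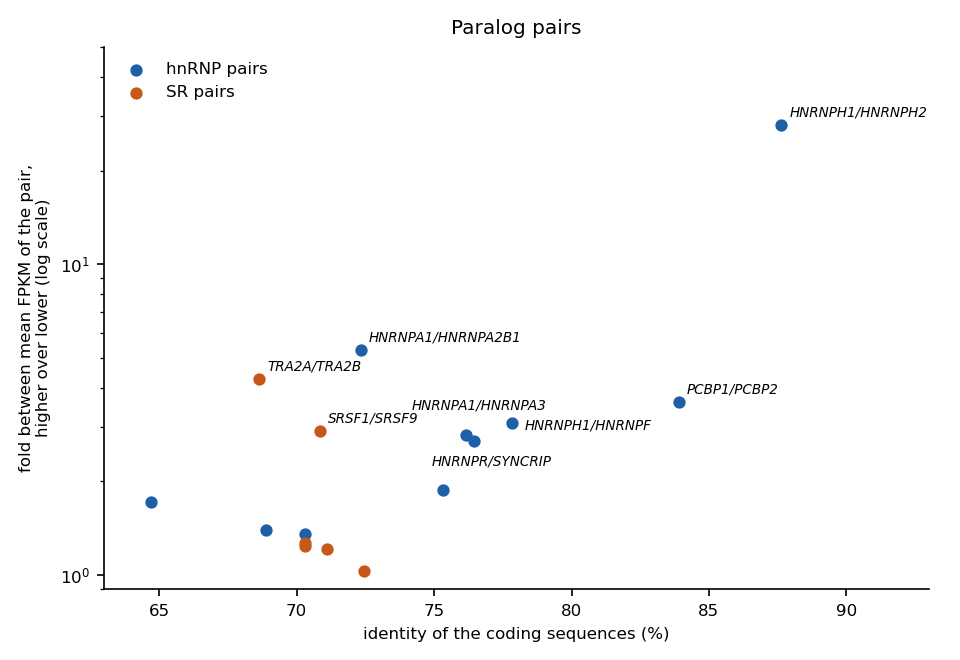
Fold between the mean FPKM of 2 related members, higher over lower (y axis, log scale), against the identity of their coding sequences in percent (x axis). Each point is 1 of 16 pairs, blue for hnRNP and orange for SR, and HNRNPH1/HNRNPH2 lies at 87.6% and 28.0-fold, apart from the others.

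FPKM divides by length, so the order of the members also depends on the transcript model. Transcript lengths were similar in the families, with medians of 3114 bases for hnRNP and 3158 bases for SR genes (GENCODE 44 reference transcripts). With FPKM multiplied by the reference transcript length in kb, the medians were 175 for hnRNP and 39.5 for SR mRNAs, a log2 ratio of 2.15. The product approximates the share of fragments only as far as this length matches the one behind the deposited FPKM, which is unknown. HNRNPA1 took the top place on that scale, at 738, ahead of HNRNPL at 479 and PTBP1 at 423. HNRNPA0, with the longest transcript of the set at 8713 bases, moved from the lowest place to 27 of 34, and SRSF1 stood 1.59 times above SRSF9, whereas by FPKM SRSF9 was 2.91 times above SRSF1.

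The families differed in gene structure more than in transcript length. The hnRNP genes had a median of 11 exons and 1256 coding bases, against 6 exons and 804 coding bases in the SR genes, and median 3′ UTRs of 1405 and 1891 bases. All 12 SR genes and 16 of 22 hnRNP genes had at least 1 annotated transcript subject to nonsense-mediated decay, with 35 such transcripts for HNRNPA2B1 and 18 for HNRNPA1. The Spearman correlation of mean FPKM with the number of exons was 0.69 over the 22 hnRNP genes and -0.0072 over the 12 SR genes. The value of 0.69 was the largest of the correlations computed with several gene features. With the number of pseudogenes bearing the gene's name it was 0.59 over hnRNP and 0.084 over SR genes. With GC content it was 0.39 and 0.14, and with transcript length -0.12 and 0.014, or -0.051 over all 34. These are descriptions across genes that share the same libraries.

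Copies elsewhere in the genome make some of these levels uncertain. A genomic copy outside the gene, with 95% identity or more across 50% or more of the coding sequence, was found for 7 hnRNP genes and 1 SR gene. HNRNPA1 had 7 such copies, the best at 99.6% identity, and 74 annotated pseudogenes bear its name. HNRNPA3 had 5 copies, and HNRNPC, HNRNPK, HNRNPL, PCBP2, SYNCRIP and SRSF6 had 1 each. Without these genes 9 of 15 hnRNP mRNAs and 2 of 11 SR mRNAs were above FPKM 30, and the log2 ratio of the medians was 1.49.

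Exons of other annotated genes covered at least 10% of the reference transcript in 9 hnRNP and 4 SR genes, on either strand. The libraries were made with a kit that keeps strand, but no source used here states whether the counting used it. Exons of another gene on the same strand, which strand cannot separate, covered 63.5% of SYNCRIP, 31.6% of SRSF1, 27.3% of PCBP2 and 26.2% of HNRNPL, the highest member. HNRNPA3 was covered over 59.8% of its length by exons on the opposite strand, and its partner there, NFE2L2 (NRF2), had 324 and 316 FPKM in replicates 1 and 2, several times its own level. PCBP1 was covered over 73.2% by its antisense RNA and SRSF2 over 30.1% by exons on the opposite strand from MFSD11, which had 5.51 and 5.97 FPKM. SRSF9 was covered over 42.6% by GATC, at 3.49 and 4.24 FPKM. The part of such overlaps in the levels was not tested. Without these 13 genes, 9 of 13 hnRNP mRNAs and 1 of 8 SR mRNAs were above FPKM 30, with a log2 ratio of the medians of 1.94.

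Beyond the members, 10 of 48 other splicing regulators with a value (20.8%) were above FPKM 30, beside 13.6% of the background. Above FPKM 20 were 19 (39.6%), beside 21.1%, and above FPKM 50 were 7 (14.6%), beside 6.89%. Among 35 other hnRNP-like and RNA-binding regulators 5 (14.3%) were above FPKM 30, led by KHSRP, a KH-domain protein of decay and splicing, at 115 and 129 FPKM. MBNL1 had 56.2 and 59.6 FPKM, RBMX (hnRNP G) 59.1 and 52.9, and the paraspeckle protein NONO 51.4 and 53.2. The splicing regulators QKI, TIA1 and KHDRBS1 lay just below FPKM 30, at means of 28.0, 26.1 and 25.9. The neural paralog PTBP2 had 0.41 and 0.43 FPKM, so within the PTB family PTBP1 was the high member, and PTBP3 had 28.6 and 17.1.

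Among 13 other SR-related genes with a value, 5 (38.5%) were above FPKM 30, beside 13.6% of the background. Their median was 20.2 FPKM, against 12.01 FPKM for the other hnRNP-like and RNA-binding regulators. This order is the reverse of that between the SR and hnRNP members. SRRM2, a very large SR-related protein of nuclear speckles, had 435 FPKM in replicate 1 and 437 in replicate 2, more than any of the 34 members. SON, another speckle protein, had 114 and 116 FPKM, the coactivator SRRM1 71.6 and 76.9, and RBM25 45.1 and 49.3. ACIN1 and RBM39 lay on either side of FPKM 30, at means of 33.9 and 29.0. The remaining SR genes SRSF8 and SRSF12 were low, at means of 1.83 and 0.92 FPKM.

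Of 12 kinases and nuclear import receptors that act on SR and hnRNP proteins, 3 (25%) were above FPKM 30, beside 13.6% of the background. KPNB1, the importin beta subunit, had 383 and 328 FPKM in replicates 1 and 2, TNPO1, the import receptor of HNRNPA1, 81.1 and 80.1, and SRPK1, the main cytoplasmic SR protein kinase, 76.2 and 74.3. TNPO3, the import receptor of SR proteins, had 24.9 and 25.5 FPKM. The nuclear SR kinases CLK1, CLK2, CLK3 and CLK4 were all low, at means of 3.51, 5.51, 3.39 and 0.93 FPKM.

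**Figure D4:**
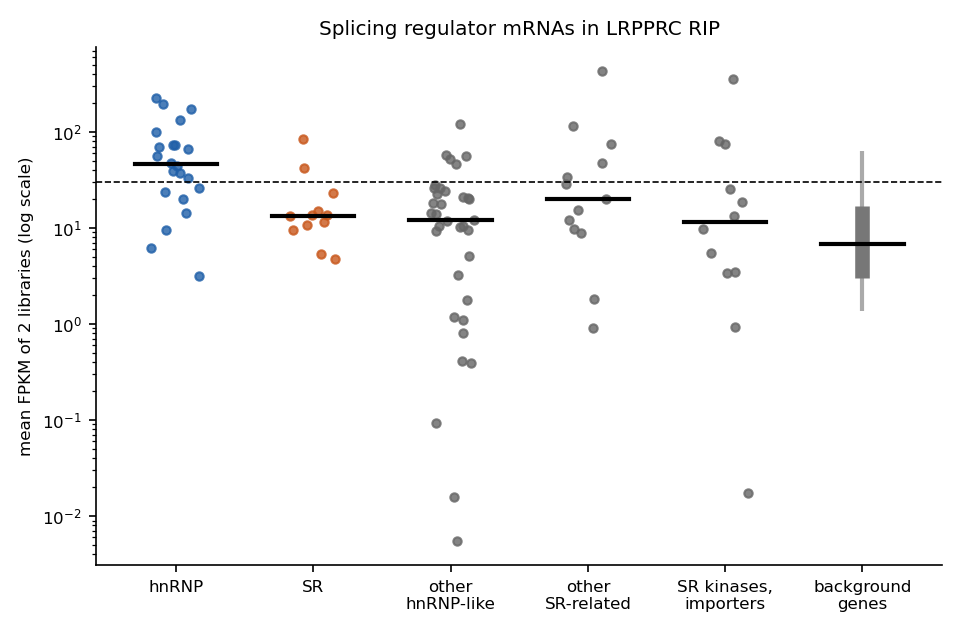
Mean FPKM over 2 libraries (y axis, log scale) of hnRNP, SR and 3 further groups of splicing regulators, each point a gene and each bar a median. The last column gives the 5 to 95% (thin) and 25 to 75% (thick) range of background genes, and the dashed line is FPKM 30, which the hnRNP median (45.9) exceeds and the SR median (13.4) does not.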

How the data were processed

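RNA from 2 LRPPRC RIP libraries of A549 cells was analysed. The deposited FPKM values were made by the authors, who used cutadapt 1.18 for adapters, HISAT2 2.1.0 for alignment on GRCh38, SAMtools for sorting and StringTie 1.3.3b with an Ensembl annotation for quantification. Replicates were not pooled. Of 21262 rows, 16802 have a gene name, and the other 4460 were assembled de novo.

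Means, SDs, ranks, medians and counts above FPKM 30 were computed from these values. Where a name had several rows, the row with the higher mean was used. The background was 10441 named genes detected at FPKM 1 or more in each library. Among 5405 genes with means below 0.3 FPKM, at most 76 (1.41%) shared a log2 ratio between the libraries within 0.02, so read counts could not be recovered, the depth is unknown and intervals that need it were left out.

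All members were named. Of the other lists, the 4 highest, those between FPKM 25 and 35, and a few genes chosen after their values were seen (the CLK kinases, PTBP2, PTBP3, SRSF8, SRSF12 and genes overlapping members) were named. The members and lists were chosen with earlier results of these data known. Gene models are from GENCODE 44 on GRCh38, later than the authors' annotation, with the Ensembl canonical transcript as reference. Copies were searched with blastn 2.17.0 and coding sequences aligned with Biopython 1.88. Calculations used numpy 2.4.6, scipy 1.17.1 and pandas 2.3.3 in Python 3.11.15, with matplotlib 3.10.9 for plots. Alternatives were thresholds of FPKM 20 and 50, single libraries, other backgrounds, pseudocounts of 0.1 and 0.01, TPM scaling, multiplication by length and narrower families.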

Additional observations from a re-analysis of the deposited data

How the results depend on the processing

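The hnRNP median exceeded the SR median under every alternative run. The alternatives in family membership narrowed the families, and none widened them. Among the other splicing regulators the order was the reverse, with a higher median for SR-related than for hnRNP-like genes. The contrast therefore holds for the listed members and not for wider lists. With a threshold of FPKM 20, 19 of the other splicing regulators (39.6%) and 21.1% of background genes were called. With FPKM 50, 11 members, 1 SR mRNA and 6.89% of background genes were. Against all named rows the background share was 8.45%. Narrower families, with symbols starting HNRNP and the classical SR proteins, left 1 SR mRNA above FPKM 30, an SR median of 12.4 FPKM and a log2 ratio of 1.89. On the TPM scale the medians were 149.9 for all members, 234 for hnRNP and 68.6 for SR mRNAs, which is a change of unit, and multiplied by length in kb they were 109, 175 and 39.5, with a log2 ratio of 2.15. With single libraries the SR median was 12.96 to 13.4 FPKM and the log2 ratio 1.80. Both of the following alternatives were chosen after seeing the data and test fewer genes. Without members that have a genomic copy, 9 hnRNP mRNAs were above FPKM 30, the hnRNP median was 37.1 FPKM and the log2 ratio 1.49. Without members overlapped by another gene, 9 hnRNP and 1 SR mRNA were above it, with medians of 47.4 and 12.4 FPKM and a log2 ratio of 1.94.

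Multiplied by the reference transcript length, which may differ from the length behind the deposited FPKM, 4 pairs changed order. Their log2 ratios on that scale were -0.035 for HNRNPD/HNRNPDL, 0.36 for HNRNPD/HNRNPAB, 0.025 for HNRNPU/HNRNPUL1 and 0.67 for SRSF1/SRSF9. SRSF4/SRSF6 had -0.097 in replicate 1 alone and 0.018 in replicate 2 alone. No paired analysis was possible because both samples share 1 condition. With the depth unknown, no counting error can be given for low values.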

Other observations

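Of the other splicing regulators, TARDBP (TDP-43), an RNA-binding protein of intronic UG repeats, had 19.1 and 9.71 FPKM in replicates 1 and 2, while PTBP3 had 28.6 and 17.1. Both differed by more than 1.5 times between the libraries, as did 1.52% of background genes and none of the 34 members. They were chosen after their values were seen, and TARDBP has a further row of the same name, with values near 0, that was not used.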
